A study of Mus musculus with 24 samples.

Results

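Livers of mice that had eaten a methionine-restricted (MR) diet for 6 h were compared with livers of mice that had eaten the control (Con) diet over the same 6 h. The comparison was made up of 12 of the 24 libraries in the series, 6 per diet, and they were chosen by the diet and time in their labels. All 24 animals were male C57BL6/J mice aged 2 months, kept on a reversed light cycle, adapted to the Con diet and without food during the lights-on period before the test meal. The diets supplied amino acids in elemental form and held 0.86% methionine (Con) or 0.17% methionine (MR). By their published composition, the MR diet also held more glutamic acid than the Con diet, and neither held cystine. The other 12 libraries, Con and MR after 3 h, helped to estimate the spread between animals and served as the earlier time point.

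Methionine is an essential amino acid that starts nearly every protein and gives rise to the methyl donor S-adenosylmethionine and, through transsulfuration, to cysteine and glutathione. Shortage of an amino acid raises the translation of the transcription factor ATF4, which pairs with C/EBP proteins at a composite DNA element and switches on genes for amino acid transport, amino acid synthesis and the loading of tRNAs. In liver the same programme includes the hormone FGF21, a secreted factor that acts on energy intake and expenditure.

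Values are in units of the deposited table, in which every library sums to between 991702 and 995314 units, after TMM scaling between libraries. Tests were made with limma on log2(value + 1), a scale that understates the change of genes near 1 unit. A gene was called changed when its Benjamini-Hochberg adjusted p over the 9049 genes listed was below 0.05. The lowest mean of a listed gene over the 24 libraries was 3 units, so the deposited list appears to have been filtered on level. Chac1, Psat1 and Sesn2 averaged below 3 units outside the MR 6 h libraries. They may therefore be listed only because they were high in that group. Each single gene was also tested two-sided by exact permutation of the diet labels among the 12 mice, for which 0.00216 is the smallest p that can be reached. The permutation p is not adjusted for the number of genes, and every gene without overlap between the diets reaches that smallest value. No source says whether mice were housed or processed in batches. RNA came from pieces of whole liver, so fewer cells of a type and less RNA per cell cannot be told apart.

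A pair of libraries stood apart at 6 h, m4238 over all genes and m4214 by adrenal cortex markers and Fabp4. The Con mouse m4238 lay at 42.0 on the first principal component, which held 34.7% of the variance, while the other 11 mice lay between -7.01 and -1.12. Its median correlation with its own group was 0.962, against 0.987 to 0.992 for the other 11. m4214 was among these 11, at -3.24 on the first component and with a correlation of 0.988. On the second component m4214 lay at 15.9 and the Con mouse m4234 at -15.7. The 10 Kupffer cell markers, all measured, summed to 1102 units in m4238 and to 395 to 542 units in the other Con mice, while 359 to 450 units were found in the MR mice. The MR mouse m4214 carried 508 units of the 5 measured of 10 adrenal cortex markers, against 34.7 to 46.7 units in the other 11 mice. It also carried 215 units of Fabp4, the only 1 measured of 5 adipose markers, against 19.4 to 61.1 units in the other 11. Cyp11b1, Cyp21a1, Mc2r, Nr5a1 and Cyp11b2 were the other adrenal cortex markers looked for and are not analysed here. All 8 hepatocyte markers were measured, and their sums overlapped between the groups, from 144229 to 169598 units in Con and from 135217 to 181407 units in MR. The part of these libraries in each result was examined only by leaving them out.

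After 6 h of MR, 55 genes were higher and 12 were lower than in Con, which is 0.608% and 0.133% of the genes listed. The largest rises belonged to Fgf21, Chac1, Psat1, Mthfd2, Trib3, Ddit4, Extl1, Sesn2 and Cars, the 9 genes that rose by at least 1 on the log2 scale. The falls were smaller, between -0.61 and -0.22, whereas the rises ran from 0.22 to 3.20 with a median of 0.49. Over all genes, 94 (1.04%) had every MR mouse above every Con mouse and 51 (0.564%) had every MR mouse below, and 45 of the 55 higher and 8 of the 12 lower genes were among them. These counts use scaled values, and the deposited values of some low genes, named below, touched. Of the 55 higher genes, 22 belonged to lists of ATF4 and its partners, ATF4 target genes or cytosolic tRNA synthetases, and 33 lay outside these lists. None of the 12 lower genes belonged to these lists. Without m4238 and m4214, 22 genes (0.243%) were higher and 1 (0.0111%) was lower.

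To show the element that ATF4 and C/EBP proteins bind together, the promoters of the changed genes were searched, from 250 bases before to 50 bases after the RefSeq start of transcription (GRCm38.p6). The letters searched were TGATGNAA, on either strand. A promoter sequence was at hand for 7275 of the listed genes, of which 161 (2.21%) held the letters. Among the genes that rose, the letters stood in 8 of 48 promoters (16.7%). Of these, 7 were among the 18 promoters of genes from the 3 ATF4-related lists (38.9%). The other 1, Gm38456, was among the 30 promoters of the remaining genes (3.33%). The lists are ATF4-related by choice and were drawn up with results from these livers known, so these shares are a description and no support. Among the genes that fell, 1 of 11 promoters held the letters. The stretches around the match are given below for the 7 listed genes that rose and for the single gene that fell, read along the strand of the gene, with the match in capitals. In all but Plscr1 the element lies on the opposite strand, so the capitals show its reverse complement.

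Trib3 (chr2:152344019-152344066, minus strand): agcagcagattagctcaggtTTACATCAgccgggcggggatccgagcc
Chac1 (chr2:119351029-119351076, plus strand): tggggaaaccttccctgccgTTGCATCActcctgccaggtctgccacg
Fgf21 (chr7:45615602-45615649, minus strand): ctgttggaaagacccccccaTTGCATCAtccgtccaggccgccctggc
Inhbe (chr10:127352002-127352049, minus strand): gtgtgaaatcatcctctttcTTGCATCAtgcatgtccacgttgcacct
Iars (chr13:49682117-49682164, plus strand): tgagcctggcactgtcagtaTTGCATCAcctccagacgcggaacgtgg
Gars (chr6:55037951-55037998, plus strand): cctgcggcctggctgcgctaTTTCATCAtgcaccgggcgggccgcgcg
Aars (chr8:111033710-111033878, plus strand): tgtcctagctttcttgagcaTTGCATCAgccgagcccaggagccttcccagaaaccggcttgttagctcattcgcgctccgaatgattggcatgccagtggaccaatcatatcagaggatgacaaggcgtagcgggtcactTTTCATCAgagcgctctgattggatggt
Plscr1 (chr9:92249951-92249998, plus strand): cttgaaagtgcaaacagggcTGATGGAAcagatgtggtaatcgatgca

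In Chac1, Fgf21, Inhbe and Iars the 8 letters were identical, TTGCATCA, at -193, -139, -181 and 7 bases from the start of transcription. Aars held the element at 2 places, -112 and 9. The other elements searched are given for all higher genes against all promoters. The cAMP response element TGACGTCA stood in 2.08% against 3.46%, the shorter TGACGT in 8.33% against 12.9%, and the NFE2L2 element TGACNNNGC in 18.8% against 15.3%. The FOXO element TGTTTAC stood in 2.08% against 2.76%, the E-box CACGTG in 8.33% against 10.9% and the GC box GGGCGG in 72.9% against 65.2%. Split by list, the NFE2L2 element stood in 27.8% of the higher genes of the 3 lists and 13.3% of the others, and the GC box in 61.1% and 80.0%. The shorter element is contained in the full one, and no test was made on these shares.

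ATF4 target genes were the group with the largest shift. Of 26 measured targets, 12 rose and none fell, against 0.608% and 0.133% of all genes listed. In 25 targets the log2 difference was positive, and the median difference was 0.76 against 0.01 over all genes. The list was drawn up with results from these livers known. Trib3, a pseudokinase that feeds back on ATF4 signalling, had the smallest p of all genes. Its level was 3.02 to 4.56 units in Con (median 4.07) and 9.72 to 14.3 units in MR (median 11.95), a difference of 1.43 ± 0.11 (SE) on the log2 scale with an adjusted p of 1.81e-08 and a permutation p of 0.00216. Every MR mouse lay above every Con mouse.

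**Figure D1:**
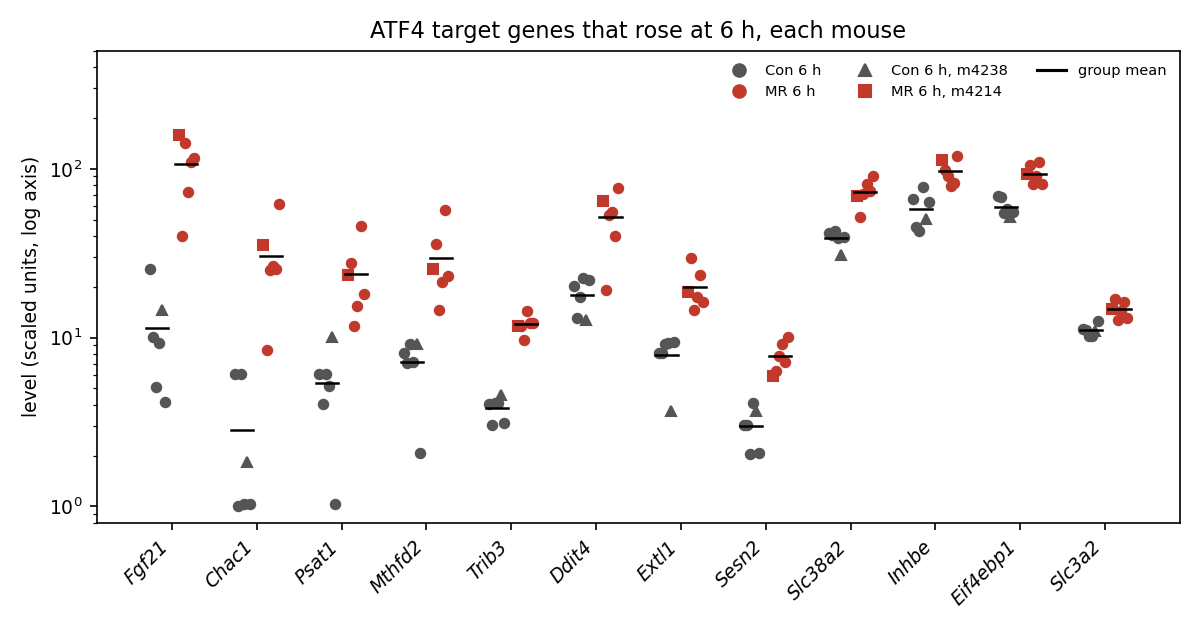
Level in each of the 12 mice of 6 h (scaled units, log axis) of the 12 ATF4 target genes that rose, Con in grey and MR in red, with bars at the group means and the mice m4238 and m4214 drawn as a triangle and a square. The groups do not overlap except for Ddit4, where 1 MR mouse lies within the Con range.

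Fgf21 and Chac1 rose most. Fgf21 was at 4.16 to 25.4 units in Con (median 9.65) and at 40.2 to 158 units in MR (median 113). This is a 9.33-fold ratio of means, and the log2 difference was 3.20 ± 0.64 (adjusted p = 0.0168, permutation p = 0.00216). The lowest MR mouse was m4219 and the highest was m4214, and without m4238 and m4214 the difference was 3.17 with an adjusted p of 0.0716. Chac1, which degrades glutathione, was at 1.01 to 6.11 units in Con (median 1.43) and at 8.47 to 61.7 units in MR (median 26.1). Its log2 difference was 3.07 ± 0.50 (adjusted p = 0.00213), and 4 of the Con mice were below 2 units, where a whole-number table leaves few possible values. Inhbe, which encodes the activin E subunit secreted by liver, went from 42.7 to 78.0 units in Con (median 56.8) to 78.8 to 118 units in MR (median 94.4). Its groups were separated by less than 1 unit, and the adjusted p was 0.0419 with 12 mice and 0.172 without m4238 and m4214.

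The serine and one-carbon enzymes among the targets came next. Psat1, which makes phosphoserine, was at 1.04 to 10.04 units in Con (median 5.61) and at 11.7 to 45.9 units in MR (median 20.9), with a log2 difference of 1.98 ± 0.31 (adjusted p = 0.00158). Mthfd2, a mitochondrial folate enzyme, was at 2.08 to 9.16 units in Con (median 7.65) and at 14.6 to 57.2 units in MR (median 24.4), with a difference of 1.89 ± 0.29 (adjusted p = 0.00127). In both genes the lowest Con mouse was m4241 and the highest MR mouse was m4239. Psph, the next enzyme after Psat1, differed by 0.66 (adjusted p = 0.0619) and Shmt2, which passes a carbon from serine to folate, by 0.36 (adjusted p = 0.0878), and neither passed the threshold. Asns, which makes asparagine and is a much used marker of ATF4 activity, was at 4.16 to 14.6 units in Con (median 11.2) and at 13.6 to 55.1 units in MR (median 22.3). Its difference of 1.26 ± 0.36 gave an adjusted p of 0.115, and 5 of 6 MR mice lay above all Con mice.

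Targets that restrain mTORC1 or translation also rose. Sesn2, a leucine sensor that inhibits mTORC1, was at 2.04 to 4.11 units in Con (median 3.03) and at 5.89 to 10.1 units in MR (median 7.46), a difference of 1.14 ± 0.15 (adjusted p = 0.000123). Ddit4, another mTORC1 inhibitor, was at 12.8 to 22.6 units in Con (median 18.8) and at 19.1 to 76.9 units in MR (median 54.4), a difference of 1.38 ± 0.26 (adjusted p = 0.00902). The MR mouse m4219, at 19.1 units, lay inside the Con range of Ddit4, and the other 5 lay above it. Ddit4 was not called without m4238 and m4214 (adjusted p = 0.0721). Eif4ebp1, whose protein holds back the cap-binding factor eIF4E, was at 52.0 to 69.0 units in Con (median 56.3) and at 80.7 to 109 units in MR (median 92.1), a difference of 0.64 ± 0.08 (adjusted p = 9.11e-05).

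Amino acid carriers on the list moved in the same direction, but only some passed. Slc38a2, a sodium-coupled carrier of small neutral amino acids that also takes up methionine, was at 31.0 to 42.7 units in Con (median 39.9) and at 51.9 to 90.0 units in MR (median 72.2), a difference of 0.87 ± 0.11 (adjusted p = 9.11e-05). Slc3a2, the shared heavy chain of several exchangers, rose by 0.38 ± 0.08 (adjusted p = 0.0248, and 0.0811 without m4238 and m4214). The glycine carrier Slc6a9 differed by 0.76 (adjusted p = 0.0582) with every MR mouse above every Con mouse, and the neutral amino acid carrier Slc1a4 by 0.81 (adjusted p = 0.114). Extl1, a glycosyltransferase, rose by 1.24 ± 0.19 (adjusted p = 0.000756), with Con between 3.65 and 9.36 units and MR between 14.6 and 29.6 units. The low end of Con in Extl1 and Slc6a9 was m4238. The stress gene Gadd45a differed by 0.90 (adjusted p = 0.0698) without overlap. The last 8 targets, Gpt2, Pck2, Herpud1, Ppp1r15a, Wars, Cth, Vegfa and Gpt, lay between -0.02 and 0.43, and Cth and Gpt changed sign when single mice were left out. Leaving out m4238 and m4214 left 8 of the 26 targets higher, against 0.243% of all genes, with a median difference of 0.71.

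The factors themselves moved less than their targets. Of 10 measured, 2 rose, against 0.608% of all genes listed. Without m4238 and m4214 only Cebpg rose, against 0.243% of all genes, while the median difference went from 0.36 to 0.27. Cebpg, a C/EBP partner of ATF4, was at 38.5 to 50.3 units in Con (median 43.2) and at 53.9 to 68.4 units in MR (median 58.5), a difference of 0.42 ± 0.08 (adjusted p = 0.00848). Nfe2l1, which drives proteasome genes, was at 45.6 to 67.8 units in Con (median 58.6) and at 67.1 to 76.7 units in MR (median 73.8), a difference of 0.33 ± 0.07 (adjusted p = 0.0173) with 5 of 6 MR mice above all Con mice, and its adjusted p was 0.0504 without m4238 and m4214. Atf4 itself was at 96.7 to 210 units in Con and at 180 to 224 units in MR, a difference of 0.43 ± 0.17 (adjusted p = 0.268). The lowest Con value was m4238, and without m4238 and m4214 the Atf4 difference was 0.28. Atf5, a relative of Atf4, differed by 0.77 (adjusted p = 0.0508), the small stress protein gene Nupr1 by 1.02 (adjusted p = 0.114) and Ddit3, which encodes CHOP, by 0.39 (adjusted p = 0.106). Cebpb, Cebpa, Atf3 and Maf lay between -0.09 and 0.13, and each changed sign under at least 1 other setting.

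Cytosolic tRNA synthetases load each tRNA with its amino acid. Of the 22 listed members measured, 8 rose and none fell, against 0.608% and 0.133% of all genes listed. The list also holds Aimp1, Aimp2 and Eef1e1, scaffold proteins of the synthetase complex that load no tRNA themselves. The 8 were Cars (1.04), Mars (0.71), Aars (0.65), Iars (0.62), Sars (0.54), Lars (0.52), Gars (0.46) and Nars (0.45), with the log2 difference in parentheses, and none of them overlapped between the groups. Mars, which loads methionine, was at 24.6 to 35.6 units in Con (median 33.02) and at 44.7 to 62.4 units in MR (median 50.0), with an SE of 0.09 and an adjusted p of 9.11e-05. Cars, which loads cysteine, was at 15.6 to 26.4 units in Con (median 25.04) and at 36.9 to 58.2 units in MR (median 44.1), with an SE of 0.14 and an adjusted p of 0.000109. Yars_1 differed by 0.45 (adjusted p = 0.0519) and Tars by 0.42 (adjusted p = 0.125), both without overlap, although the lowest Con value of Tars, 98.6 units in m4238, was far below the next. Eprs stood at 0.34 (adjusted p = 0.125). Farsa, Farsb_1, Wars, Rars, Hars, Qars, Kars, Aimp2, Dars, Aimp1 and Eef1e1, the last 11 of the list, lay between -0.12 and 0.16, so the rise did not extend to every member. The synthetase genes that rose include those for methionine, cysteine, alanine, serine, glycine, asparagine, leucine and isoleucine. None of the 15 mitochondrial synthetases measured was called, and their median difference was 0.01. Without m4238 and m4214, 6 of the 22 cytosolic genes stayed past the threshold, against 0.243% of all genes higher. The median difference was then 0.21 in place of 0.25.

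Among the 33 genes that rose outside the ATF4-related lists, several serve redox and drug metabolism. The NFE2L2 pathway senses oxidants and electrophiles, and of 34 measured members 3 rose and none fell, against 0.608% and 0.133% of all genes listed. Aox1, an aldehyde oxidase, was at 19.2 to 26.7 units in Con (median 21.0) and at 30.7 to 38.3 units in MR (median 34.9), a difference of 0.65 ± 0.13 (adjusted p = 0.0168). Ugt2b35, which conjugates glucuronic acid, rose by 0.45 ± 0.09 (adjusted p = 0.0168) from 108 to 155 units in Con to 157 to 202 units in MR, and the Ugt2b genes are near copies that may share reads. Txnrd1, thioredoxin reductase, was at 74.3 to 83.5 units in Con and at 87.3 to 99.0 units in MR, a difference of 0.25 ± 0.05 (adjusted p = 0.0265). The groups of all 3 genes were separate. Gclc, which makes the rate-limiting subunit for glutathione synthesis, differed by 0.45 (adjusted p = 0.0808). Oplah, which recovers glutamate from 5-oxoproline, rose by 0.32 ± 0.08 (adjusted p = 0.0450). Only Ugt2b35 of these genes, without m4238 and m4214, stayed past the threshold (adjusted p = 0.0252), and the adjusted p was 0.0937 for Aox1, 0.0649 for Txnrd1 and 0.172 for Oplah. In 29 of the 34 NFE2L2 genes the difference was positive, with a median of 0.16, and among the remaining 10 mice it was positive in 33 with a median of 0.19. Over all genes it was positive in 4660 of 9049, and in 4527 with 10 mice. With 12 mice, Nfe2l2 itself and Nqo1 were each at 0.01, and the lowest of the 5 members below zero was Gsta4 at -0.21.

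Hmox1, the heme oxygenase of the same list, was called only when m4238 and m4214 were left out. In Con it was at 22.6 to 29.2 units in 5 mice and at 71.2 units in m4238, and in MR it was at 33.8 to 42.2 units. With 12 mice the difference was 0.32 (adjusted p = 0.421). Without m4238 and m4214 it was 0.54 (adjusted p = 0.00889).

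Genes for chromatin and RNA regulation formed another group outside the ATF4-related lists. The list was drawn up knowing that genes of this kind had changed at 6 h in these livers, so its direction is a description and no support for the group. Of 71 measured, 6 rose and none fell, against 0.608% and 0.133% of all genes listed, and the median difference was 0.20. Among the 6 were Ubr2 (0.63), a ubiquitin ligase of the N-degron pathway, the transcription factor Gtf2ird1 (0.52), the histone methyltransferase Setd1a (0.37), the remodelling subunit Ep400 (0.29) and the kinase Cdk12 (0.27). Ubr2 was at 16.4 to 30.5 units in Con (median 26.1) and at 35.0 to 43.9 units in MR (median 37.8), with an SE of 0.11 and an adjusted p of 0.00209. Its groups were separate between the diets. Cdk12 had deposited values of 4 to 5 units in Con and 5 to 6 in MR, so the deposited values touched at 5 and the separation of its groups came from the scaling alone. Only Ubr2 of the 6 passed without m4238 and m4214.

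Transcript length moved with this group and is given beside it. The 71 genes had a median length of 8183 bases for the longest basic transcript (GENCODE vM21, GRCm38), against 2983 bases over all genes. Sorted by length into 5 classes of equal size, all genes had a median log2 difference of -0.05 in the shortest class and 0.06 in the longest, and at 3 h the same medians were -0.06 and 0.04. In single mice, the longest class minus the shortest ran from -0.198 to 0.028 in Con and from -0.025 to 0.150 in MR, so the groups overlapped. The part of transcript length in the differences was not tested. The genes that rose outside the ATF4-related lists had a median length of 4040 bases and those in the lists 3092 bases, while the genes that fell had a median of 2247.5 bases.

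Short transcripts for ribosomes and respiration lay on the other side of zero without a called gene. Among 72 cytosolic ribosomal protein genes 62 were below zero with a median of -0.11, among 72 mitochondrial ribosomal protein genes 56 were below zero with a median of -0.06, and among 73 respiratory chain genes 53 were below zero with a median of -0.05. In single mice the mean over the cytosolic ribosomal genes, set to the Con mean, ran from -0.18 to 0.22 in Con and from -0.21 to -0.03 in MR, so the groups overlapped. Above zero were only the Con mice m4221, m4222 and m4238. The 3 medians without m4238 and m4214 were -0.09, -0.05 and -0.07. Their median lengths were 925.5, 1327.5 and 908 bases. At 3 h the cytosolic ribosomal median was also -0.11, and no gene was called at that time either.

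Further genes that rose outside the ATF4-related lists belonged to no single theme. Whether they depend on ATF4 was not tested. Ikbkg, the regulatory subunit of the kinase that activates NF-kB, was at 17.3 to 23.6 units in Con (median 21.2) and at 30.7 to 36.4 units in MR (median 33.7), a difference of 0.66 ± 0.08 (adjusted p = 9.11e-05, permutation p = 0.00216). It was the only 1 of 16 measured NF-kB genes called. Beside this and the other single calls in this paragraph, 0.608% of all genes listed were higher and 0.133% lower. Gjb2, the gap junction protein connexin 26 of hepatocytes, was at 249 to 307 units in Con (median 274) and at 352 to 496 units in MR (median 387), a difference of 0.55 ± 0.08 (adjusted p = 0.000364). Eif3c, a subunit of the translation initiation factor eIF3, was at 103 to 115 units in Con (median 110) and at 126 to 157 units in MR (median 138), a difference of 0.36 ± 0.07 (adjusted p = 0.0168), and it was the 1 called of 30 translation factor genes, a call that was lost without m4238 and m4214 (adjusted p = 0.0751). Groups did not overlap in these 3 genes. Ern1, the unfolded protein sensor IRE1, rose by 0.49 ± 0.10 (adjusted p = 0.0229) as the 1 called of 31 genes of the unfolded protein response, and was not called without m4238 and m4214 (adjusted p = 0.0936). Tsku, a secreted hepatic protein, was at 45.3 to 121 units in Con (median 63.4) and at 85.7 to 159 units in MR (median 121), a difference of 0.82 ± 0.19 (adjusted p = 0.0456) with 3 of 6 MR mice inside the Con range set by m4241, and without m4238 and m4214 its adjusted p was 0.172.

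The remaining rises were mostly small. Tspyl4, a nucleosome assembly protein family member, rose by 0.98 ± 0.20 (adjusted p = 0.0168) at levels of 1.83 to 5.09 units in Con and 3.89 to 8.17 units in MR. Tfe3, a transcription factor of lysosomal genes, rose by 0.47 (adjusted p = 0.0476), the lipid transporter Abca8b by 0.55 (adjusted p = 0.0450), the angiomotin relative Amotl2 by 0.48 (adjusted p = 0.0456) and the collagen chain Col5a3 by 0.45 (adjusted p = 0.0456). RNA-binding and RNA-modifying genes were among the smaller ones, with Dhx9 at 0.41, Taf15 at 0.40, Sltm at 0.28, Fxr2 at 0.25 and the RNA demethylase Alkbh5 at 0.22. The transcription factor Mef2d (0.39), Ankrd11 (0.36), Atxn7l3 (0.26), Rcc2_1 (0.42), Ywhag (0.32), the long non-coding RNA Gm38456 (0.53) and A230050P20Rik (0.57) completed the set together with Zfp672 (0.28). Of Zfp672, deposited values were 3 to 4 units in Con and 4 in every MR mouse, and the separation of its groups came from the scaling alone.

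Genes that fell were few, and their changes were small. The 12 were Ncf1 (-0.61), Serpinb6b (-0.58), Plscr1 (-0.52), Lyrm2 (-0.34), Timm21 (-0.29), Cbx3 (-0.29), Dtd2 (-0.27), Pdzd11 (-0.27), Nudt1 (-0.26), Akr1e1 (-0.26), Spryd4 (-0.24) and 1600012H06Rik (-0.22), of which 11 were in none of the 54 lists. Lyrm2, a member of a family of mitochondrial LYR-motif proteins, had the smallest p of them. It was at 25.4 to 31.0 units in Con (median 27.4) and at 19.1 to 24.6 units in MR (median 21.4), a difference of -0.34 ± 0.07 (adjusted p = 0.0121, permutation p = 0.00216). Every MR mouse lay below every Con mouse.

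**Figure D2:**
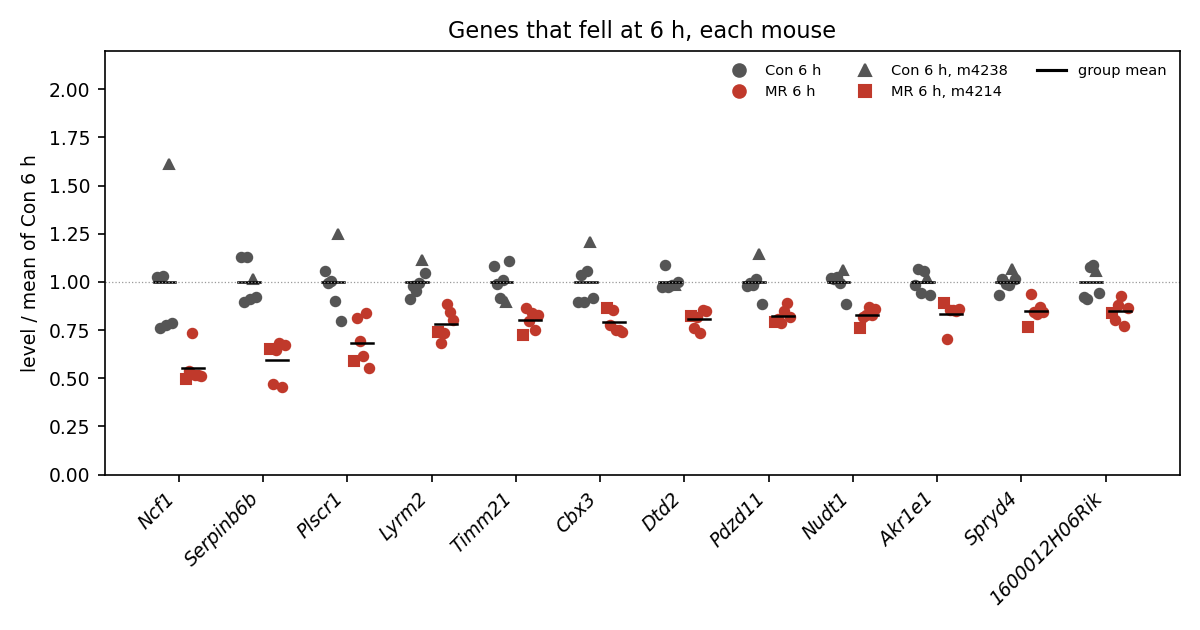
Level in each mouse of 6 h divided by the mean of the 6 Con mice, for the 12 genes that fell, in order of the log2 difference, with Con in grey, MR in red, bars at the group means and m4238 and m4214 drawn as a triangle and a square. MR means lie below 1 in all 12 genes, and m4238 is the highest Con mouse for Ncf1, Plscr1, Lyrm2, Cbx3, Pdzd11, Nudt1 and Spryd4.

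Ncf1, a subunit of the phagocyte NADPH oxidase, was at 3.02 to 6.39 units in Con (median 3.59) and at 1.96 to 2.92 units in MR (median 2.04). The deposited values were 3 to 7 units and 2 to 3 units, so they touched at 3 and the separation of the groups came from the scaling alone. The highest Con mouse for Ncf1 was m4238, which also had the highest sum of Kupffer cell markers. The difference of -0.61 ± 0.15 (adjusted p = 0.0456) was -0.47 without m4238 and m4214. Serpinb6b, an intracellular serine protease inhibitor, was at 4.02 to 5.09 units in Con (median 4.36) and at 2.04 to 3.07 units in MR (median 2.93). Its difference of -0.58 ± 0.12 (adjusted p = 0.0203) was -0.60 without the pair. Plscr1, a phospholipid scramblase induced by interferon, was at 14.6 to 22.8 units in Con (median 18.2) and at 10.1 to 15.3 units in MR (median 11.9). The difference was -0.52 ± 0.11 (adjusted p = 0.0236), and 2 of 6 MR mice lay within the Con range.

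Other genes that fell have roles in mitochondria, metabolism and chromatin. Timm21 takes part in protein import into mitochondria, and it went from 10.95 to 13.5 units in Con to 8.83 to 10.6 units in MR (adjusted p = 0.0450). Nudt1 removes oxidised nucleotides and went from 22.9 to 27.4 units to 19.6 to 22.5 units (adjusted p = 0.0414). Akr1e1, an aldo-keto reductase, went from 61.4 to 70.4 units to 46.6 to 58.9 units (adjusted p = 0.0327). These 3 genes had no overlap between the diets. Cbx3, a heterochromatin protein of the HP1 family, had deposited values of 6 to 9 units in Con and 5 to 6 units in MR (adjusted p = 0.0456). These values touched at 6, so the separation of its groups came from the scaling alone. Dtd2, which removes wrongly loaded amino acids from tRNA, was at 8.12 to 9.06 units in Con and at 6.14 to 7.14 units in MR (adjusted p = 0.0476). Pdzd11, Spryd4 and 1600012H06Rik each had 5 of 6 MR mice below all Con mice. No gene of the 12 was called without m4238 and m4214, although all kept a negative difference, and the single call in that comparison was Tmc7, at -0.48 against -0.39 with 12 mice.

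A few abundant or familiar genes fell short of the threshold in the downward direction. Hamp, the iron hormone hepcidin, was at 1311 to 2494 units in Con (median 1567) and at 632 to 1440 units in MR (median 876), a difference of -0.84 ± 0.22 (adjusted p = 0.0726), with 5 of 6 MR mice below all Con mice. Btg2, an antiproliferative immediate early gene, was at 8.32 to 32.9 units in Con and at 4.23 to 11.2 units in MR, a difference of -0.91 ± 0.22 (adjusted p = 0.0542). The highest Con mouse for both genes was m4238, and without m4238 and m4214 the differences were -0.72 and -0.64.

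None of the 21 measured genes on the list for the methionine cycle and transsulfuration passed the threshold, and the median difference was 0.02. Cbs, which joins homocysteine and serine, differed by 0.36 ± 0.12 (adjusted p = 0.188), from 246 to 300 units in Con to 297 to 443 units in MR, while Cth, the next enzyme, differed by 0.06 (adjusted p = 0.875). In the urea cycle (11 measured) and amino acid breakdown (38 measured) no gene passed, and the medians were -0.04 and 0.00. Gluconeogenesis (17 measured) had no call and a median of 0.09, with G6pc, the glucose-6-phosphatase catalytic subunit, at 248 to 384 units in Con and 385 to 569 units in MR (difference 0.64, adjusted p = 0.0841). Igfbp1, a binding protein for insulin-like growth factors that responds to fasting, differed by 0.72 ± 0.47 (adjusted p = 0.485).

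**Figure D3:**
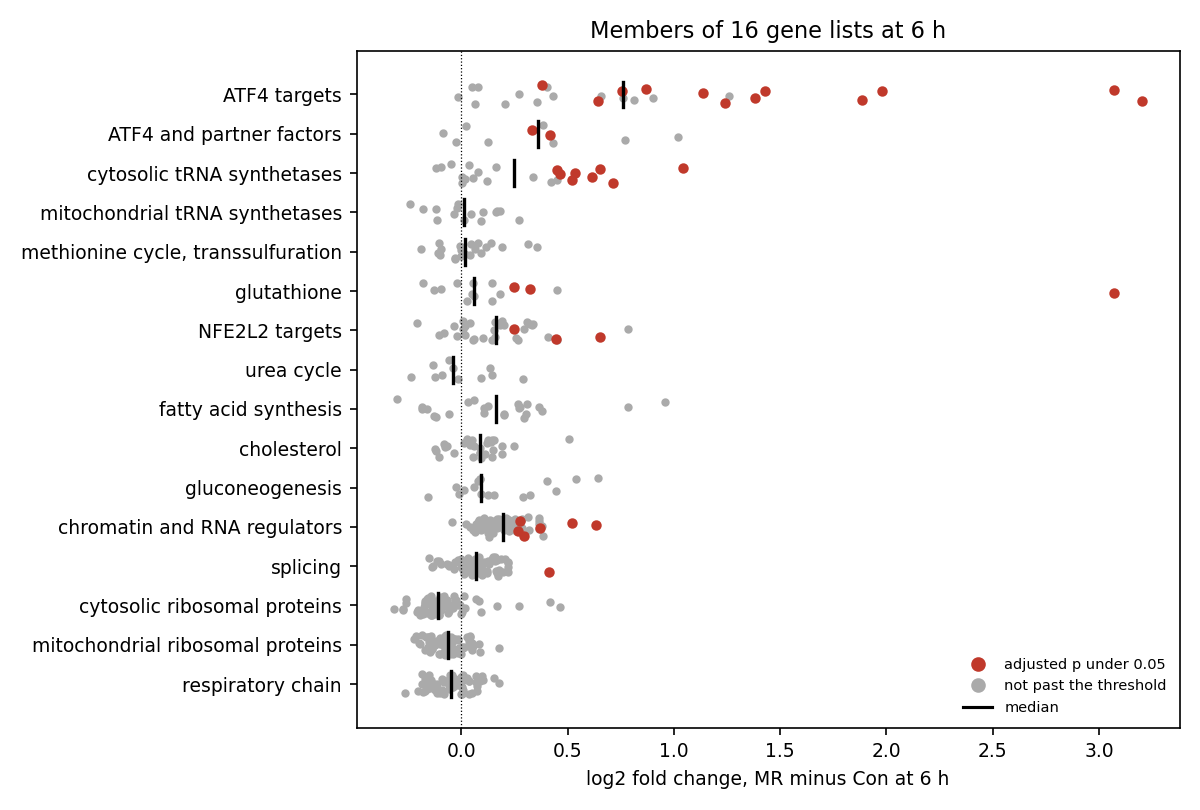
Log2 difference (MR minus Con at 6 h) of each measured member of 16 gene lists, with genes past the threshold in red, the others in grey and the median of each list as a bar. Red points stand to the right of zero, and among these 16 lists the medians are largest for ATF4 targets (0.76), ATF4 and partner factors (0.36) and cytosolic tRNA synthetases (0.25).

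The medians of lipid and zonation genes moved towards zero or past it without m4238 and m4214. No gene of fatty acid synthesis (24 measured), cholesterol (29 measured) or pericentral zonation (13 measured) was called, but their median differences of 0.16, 0.09 and 0.27 became 0.06, -0.06 and 0.04 without m4238 and m4214. Elovl3, a fatty acid elongase, was at 59.3 units in m4238 and at 732 to 928 units in the other 5 Con mice. The medians for the unfolded protein response and for secreted serpins, apolipoproteins and major urinary proteins changed sign in the same way, from 0.09 to -0.07 and from 0.065 to -0.11. For DNA replication genes (15 measured) the median went from -0.14 to -0.0048. By contrast, the ATF4 target median went from 0.76 to 0.71. In single mice, the mean over each list was set to the Con mean. For fatty acid synthesis it was -0.90 in m4238 and -0.23 in m4214, and for cholesterol -0.75 and 0.03. For pericentral zonation it was -0.68 and 0.34, and for the unfolded protein response -0.71 and 0.28. For the secreted proteins it was -0.90 and 0.15, and for DNA replication 0.73 and -0.19.

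All 67 called genes kept their sign without m4238 and m4214. The ratio of the log2 difference without the pair to that with all 12 mice ran from 0.740 to 1.14 with a median of 0.939. Of the 55 higher genes 20 stayed past the threshold, 44 of the 67 had an adjusted p under 0.1, and the largest adjusted p among them was 0.238, for Amotl2. Hmox1, Lmo4 (0.46, a LIM-domain cofactor) and Tmc7 (-0.48) were called only without the pair. Dropping m4238 alone gave 42 higher and 8 lower genes and dropping m4214 alone gave 35 and 3.

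**Figure D4:**
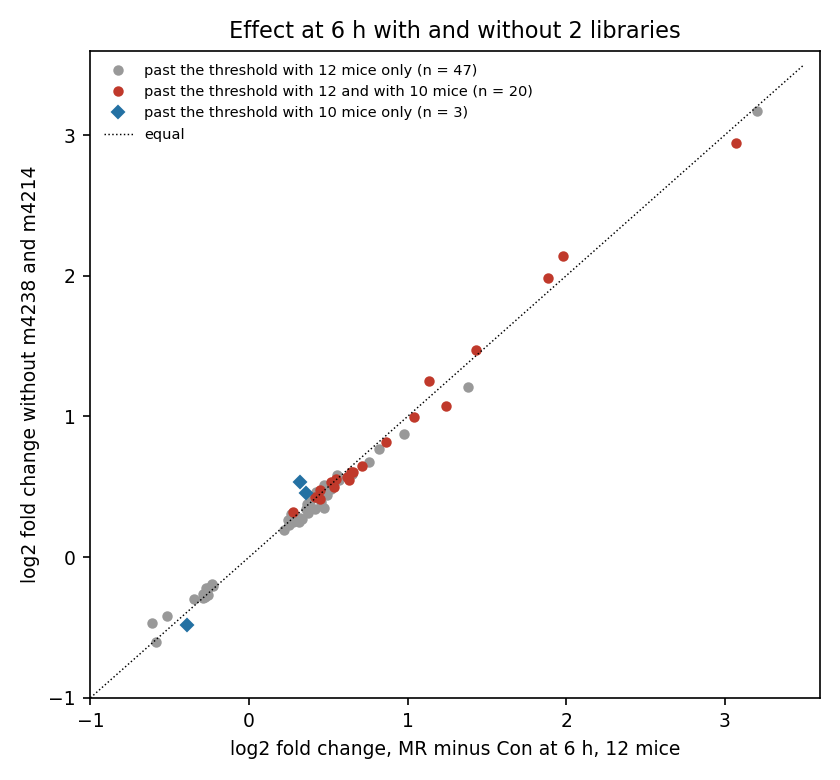
Log2 difference (MR minus Con at 6 h) with 12 mice on the horizontal axis and without m4238 and m4214 on the vertical axis, for the 70 genes past the threshold in either comparison. The 20 genes called in both are in red, the 47 called with 12 mice only in grey and the 3 called with 10 mice only as blue diamonds, and the dotted line marks equal values.

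At 3 h no gene was called. An unadjusted p under 0.05 by limma was found for 603 genes at 3 h and 1282 at 6 h. With no effect of diet, a share of 0.05 of the 9049 genes would be expected there. The difference between the MR effect at 6 h and that at 3 h was itself past the threshold for 6 genes (0.0663%). These were Trib3 (1.43 ± 0.16), Sesn2 (1.30 ± 0.21), Cars (0.99 ± 0.19), Ikbkg (0.71 ± 0.12), Mars (0.70 ± 0.13) and Eif4ebp1 (0.60 ± 0.11), given as the log2 difference of the effects. At 3 h their MR effects lay between -0.17 and 0.06. The effects of Fgf21 and Chac1 were 0.48 and 0.43 at 3 h, and the difference between the times was not past the threshold for either (adjusted p = 0.512 and 0.272). Without m4238 and m4214, 2 genes had a called difference between the times.

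**Figure D5:**
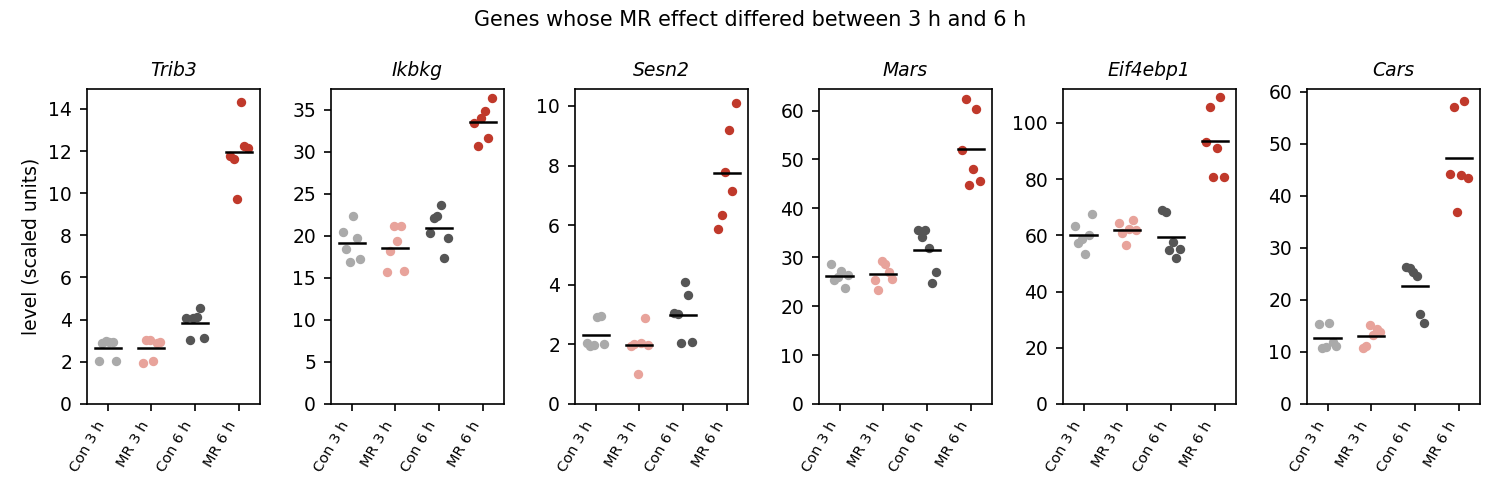
Level in scaled units of the 6 genes whose MR effect differed between 6 h and 3 h, in each mouse of the 4 groups, with bars at the group means. In each gene the 6 MR mice of 6 h lie above every mouse of the other 3 groups.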

How the data were processed

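Liver RNA of 24 mice was measured by 3′ mRNA sequencing, and 12 libraries of 6 h were compared. GRCm38 and DESeq2 1.22.2 appear in the notes the submitters gave on processing. The first deposited table is called raw counts, but its whole numbers sum to nearly the same total in every library (991702 to 995314). It was therefore treated as a score that the authors appear to have scaled and rounded, an inference from these totals, so sequencing depth is unknown and no count model or counting interval was used. The second deposited table, also a score, is the first divided by 1 size factor per library (largest deviation 4.96e-05) and served as an alternative scaling. Values were scaled by a trimmed mean of M values (TMM, trims of 30% and 5%), transformed as log2(value + 1) and fitted with limma 3.58.1 (R 4.3.3, statmod 1.5.0, trended robust prior) to the means of the 4 groups, with p-values adjusted by the Benjamini-Hochberg method over 9049 genes. The fit was tested on simulated data with independent continuous noise, which held neither rounding to whole numbers nor shifts of whole libraries. Nothing says that mice of a group came from separate cages, so p-values measure the spread between these animals.

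Groups came from the sample labels. The members and the gene lists were chosen with earlier results of these data known. Genes were named by rule: those past the threshold with the largest changes (up to 25 per direction) or smallest p (up to 15), up to 4 per list by p, every measured ATF4 factor, ATF4 target and cytosolic synthetase, up to 10 per direction in no list, and up to 5 per direction gaining or losing the call without m4238 and m4214. Fabp4 was named as a marker after its value was seen. Nfe2l2, Nqo1 and Gsta4 were named outside the rule to show list members near or below zero, and were not searched for outlying values. Values of 1 gene past the threshold are not reported here. RefSeq names matched 9001 of the 9049 genes, and 153 carried a suffix. Alternatives covered scaling, pseudocount, a filter on low values, libraries in the fit, the prior, library weights and each mouse left out.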

Additional observations from a re-analysis of the deposited data

Results flagged for a closer look

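In a group of 6 mice, a highest or lowest value was noted where its gap to the nearest other mouse was more than 0.625 of the range (Dixon's critical value), a distance that chance exceeds in about 1 of 20 groups. That rate does not apply where low whole numbers are tied. Of 244 groups looked at, 37 had such a value, 32 of them in genes.

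m4238 (Con) held 14 of the gene values. It was far above the other 5 mice of its group for Atf3 (8.21 units, others 2.04 to 4.11), Cth (935 units, others 436 to 572), Ncf1 (6.39 units, others 3.02 to 4.07), Btg2 (32.9 units, others 8.32 to 14.4), Hmox1 (71.2 units, others 22.6 to 29.2), Pck2 (6.39 units, others 2.03 to 3.08) and Aimp2 (21 units, others 13.3 to 15.3). It was slightly above them for Cdk12 (4.56 units, others 4.03 to 4.16) and Zfp672 (3.65 units, others 3.02 to 3.12). Deposited Con values of these genes ran only from 4 to 5 and from 3 to 4. The same mouse lay far below the others of its group for Extl1 (3.65 units, others 8.05 to 9.36), Slc38a2 (31 units, others 39 to 42.7), Slc6a9 (9.12 units, others 22.1 to 26.5), Tars (98.5 units, others 184 to 199) and Elovl3 (59.3 units, others 732 to 928). m4239 (MR) held 8 of the gene values. It was far above the other 5 mice of its group for Asns (55.1 units, others 13.6 to 26.5), Psph (15.3 units, others 6.8 to 9.53), Slc1a4 (21.4 units, others 6.8 to 11.6), Iars (72.5 units, others 39.9 to 51.9), Yars_1 (7.14 units, others 4.86 to 5.29), Taf15 (105 units, others 66.1 to 80.4) and Btg2 (11.2 units, others 4.23 to 6.8). The same mouse lay far below them for Oplah (53.1 units, others 59.7 to 62.2). m4219 (MR) held 4 of the gene values. It was far above the other 5 mice of its group for Tars (285 units, others 210 to 230), Rcc2_1 (13.8 units, others 9.21 to 10.8) and Cbs (444 units, others 298 to 340). The same mouse lay far below them for Akr1e1 (46.6 units, others 56.1 to 58.9). m4241 (Con) held 3 of the gene values. It was far above the other 5 mice of its group for Tsku (121 units, others 45.3 to 68.8). The same mouse lay far below them for Mthfd2 (2.08 units, others 7.04 to 9.16) and Gars (43.7 units, others 51.9 to 54.8).

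The other gene values came from m4242 for Cdk12 (6.07 units, others 4.86 to 5.29), m4228 for Ncf1 (2.92 units, others 1.96 to 2.12) and m4222 for Dtd2 (9.06 units, others 8.12 to 8.32), all of them highest in their group. Deposited MR values ran only from 5 to 6 for Cdk12 and from 2 to 3 for Ncf1. Among summed marker levels, Kupffer cell markers were highest in m4238 (1102 units, others of its group 395 to 542), the only adipose marker measured, Fabp4, was highest in m4214 (215 units, others of its group 19.4 to 28.3), adrenal cortex markers were highest in m4214 (508 units, others of its group 34.9 to 45.7), blood markers were highest in m4219 (1538 units, others of its group 737 to 831) and stellate cell markers were highest in m4238 (710 units, others of its group 405 to 502). The MR effect at 6 h differed from that at 3 h by the test of the difference itself in 6 genes. On the log2 scale the differences were Trib3 1.43, Ikbkg 0.71, Sesn2 1.30, Mars 0.70, Eif4ebp1 0.60 and Cars 0.99.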

How the results depend on the processing

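With all 12 mice, 55 genes were higher, 12 lower and 6 differed between the times. With library weights these counts were 85, 31 and 3. Without TMM factors 4 genes were lower, with the 12 libraries of 6 h alone 2 were lower, and 3 genes differed between the times with a mean of at least 10 units or without the trended robust prior. Without m4238 and m4214 together the counts were 22, 1 and 2. Leaving out each mouse gave 30 to 58 higher genes, 2 to 18 lower genes and 3 to 6 genes differing between the times. The higher count moved by over 1.5 times without m4214 (35), m4219 (30), m4221 (35), m4229 (34) or m4242 (36). The lower count did so without every mouse except m4238 (8) and m4241 (18), and the count between the times was 3 without m4214, m4234, m4238, m4239 or m4241. Of 1389 values of the 67 called genes under these alternatives, 958 stayed past the threshold, 431 did not and 0 changed sign. The 17 genes past the threshold under every alternative all rose. The causes were not tested.

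Signs changed only in genes near zero that were not called. Without m4238 and m4214 the log2 difference was -0.034 for Cebpa, 0.15 for Atf3, 0.0071 for Maf, -0.0049 for Kars and -0.040 for Qars. It was 0.085 for Atf3 and -0.045 for Kars with library weights, -0.0089 for Kars and -0.0095 for Aimp2 without TMM factors, and -0.000196 for Kars and -0.00091 for Aimp2 with 12 libraries. Leaving out each mouse gave -0.030 to 0.37 for Cebpb, -0.017 to 0.083 for Cebpa, -0.15 to 0.17 for Atf3, -0.0014 to 0.22 for Cth, -0.062 to 0.049 for Gpt, -0.026 to 0.027 for Kars, -0.022 to 0.048 for Qars and -0.038 to 0.090 for Aimp2. The median of all genes stayed between -0.00551 and 0.00891 over all settings.

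Depth is unknown, and values near 1 unit are coarse because the deposited values are whole numbers. The median 95% half-width of a log2 difference was 0.23 for the 1244 genes under 5 units and 0.17 for the 1127 genes above 100 units. No paired analysis was possible because each mouse carries its own number and the groups share none.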
